A study of Homo sapiens with 6 samples.

Results

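The genes described here are 10 known transcriptional targets and feedback regulators of canonical Wnt signalling: AXIN2, NKD1, NOTUM, RNF43, ZNRF3, SP5, SP8, LGR5, TNFRSF19 and APCDD1. They were found by gene symbol, and all 10 are among the 27672 genes of the deposited RNA-seq table. Polyadenylated RNA was sequenced from H9, a line of human embryonic stem cells (hESCs), kept untreated as day 0, and from neuromesodermal progenitor-like (NMP-L) cells made from H9 by day 3, with 3 libraries of each. Per the labels, hESCs were grown without feeder cells on fibronectin, in DEF medium containing Noggin at 10 ng/ml and bFGF at 30 ng/ml, while the study's methods name TESR medium and Geltrex. The NMP-L cells had spent 3 days in a basal medium with N2 and B27 supplements, to which CHIR99021 at 3 µM, an inhibitor of the kinase GSK3 that activates Wnt signalling, and bFGF at 20 ng/ml were added. The methods add BMP and TGFβ inhibitors from day 2 when the cells are taken on to neural progenitors, and whether the day 3 cultures sequenced here received them is not stated. Both conditions come from this single unmodified cell line, and no day 3 culture without CHIR99021 was analysed here, so CHIR99021, the change of medium and the time in culture cannot be told apart. The libraries are labelled as biological replicates, but nothing states that they were separate cultures, and p-values then measure the spread between these libraries only.

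In canonical Wnt signalling, a ligand bound to Frizzled and LRP5/6 receptors stops a complex of Axin, APC and GSK3 from marking β-catenin for destruction, and β-catenin then activates transcription with TCF/LEF factors. Several of the genes switched on encode inhibitors of the pathway, which act on the ligand, the receptors or the Axin complex and so form negative feedback loops. In the embryo, Wnt activity is high in the tail bud, where neuromesodermal progenitors, cells able to form both neural and mesodermal tissue, are found.

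The authors' RSEM expected counts (estimated counts per gene, carrying no scaling between libraries) summed to between 19454543 and 23036426 per library, and 3 counts, taken as the detection floor, corresponded to between 0.125 and 0.160 CPM. CPM here are counts scaled by TMM and by library size (totals of 1000000), and differences were tested with edgeR's quasi-likelihood test across the 15517 genes that passed its expression filter, with Benjamini-Hochberg adjusted p-values over all of them and a threshold of 0.05. In bulk libraries, fewer cells with a transcript and less transcript per cell cannot be told apart. The labels were checked against markers: all 6 pluripotency markers were lower in NMP-L cells (summed level 3758 to 4003 CPM in hESC and 2008 to 2128 CPM in NMP-L libraries). Of 7 markers of NMP-like cells 6 were tested, with 4 higher (T, CDX1, CDX2, NKX1-2), 1 lower (FGF17) and 1 not called (SOX2). The untested marker, FGF8, had 4, 11 and 7 counts in hESC and 3, 2 and 1 counts in NMP-L libraries, lower in every NMP-L library. Some markers of other cell types were called higher in NMP-L cells as well. Of 7 primitive streak and endoderm markers 3 were tested and 2 were higher, EOMES (2, 1 and 0 against 46, 48 and 64 counts, at least 14.9-fold) and MIXL1 (4.45-fold), with SOX17 at or under the floor in all 6 and a summed level of 10.2 to 12.2 CPM in NMP-L against 3.29 to 4.44 CPM in hESC libraries. Of 5 neural progenitor markers 2 were tested and 1 was higher, SOX1 (7, 13 and 4 against 284, 197 and 274 counts), with NEUROG2 at or under the floor in all 6 and a summed level of 11.2 to 14.4 against 2.46 to 3.55 CPM. The other tested neural progenitor marker was not called, and its NMP-L libraries all lay below its hESC libraries. Of 5 presomitic mesoderm markers 3 were tested, with DLL1 higher (1.82-fold), TBX6 lower and a summed level of 22.8 to 26.0 against 15.2 to 19.02 CPM. Of 6 neural crest and border markers 3 were tested, with SOX10 and FOXD3 lower, PAX3 at or under the floor in all 6 and a summed level of 4.91 to 6.10 against 27.0 to 31.7 CPM. The part of these cell types in the results below was not tested.

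Most of the Wnt targets were higher in NMP-L cells, but the pair with the highest levels per length in hESCs, AXIN2 and ZNRF3, were not among them. Of the 10 genes, 9 passed the filter: 7 rose (SP5, APCDD1, TNFRSF19, RNF43, NKD1, SP8 and NOTUM), AXIN2 fell and ZNRF3 was not called, while LGR5 was too low to be tested. Differences were common in these libraries, since 55.8% of all tested genes were called, 29.1% as higher and 26.7% as lower in NMP-L cells. All 7 rises were at least 2-fold, a size reached by 9.38% of all tested genes. The median log2 fold change of the 9 tested genes was 2.01, against 0.03 over all tested genes. Genes with as few hESC counts as SP5 and TNFRSF19 pass the filter only through their NMP-L libraries, so they could enter these numbers only as rises. With at least 10 counts required in every library, 6 of the 10 genes were tested, with 4 higher and 1 lower. Of all genes tested that way, 29.0% were higher and 26.3% lower. For the 7 genes that rose, all NMP-L libraries lay above all hESC libraries, as was the case for 32.1% of all tested genes. For AXIN2 and ZNRF3 every NMP-L library was below every hESC library, as for 29.5% of all tested genes. An exact permutation test of log2 CPM (two-sided) returned p = 0.1 for each of these 9 genes, which is the lowest p obtainable with 3 libraries per condition. The scaling mattered for these numbers. When GAPDH counts set the scale, 8 of the 9 were higher and 0 lower, against 64.6% and 9.20% of all tested genes. With HPRT1 counts 6 were higher and 2 lower, against 11.6% and 34.1% of all tested genes. These scalings moved the median of all genes by 0.56 and -0.30 on the log2 scale.

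**Figure D1:**
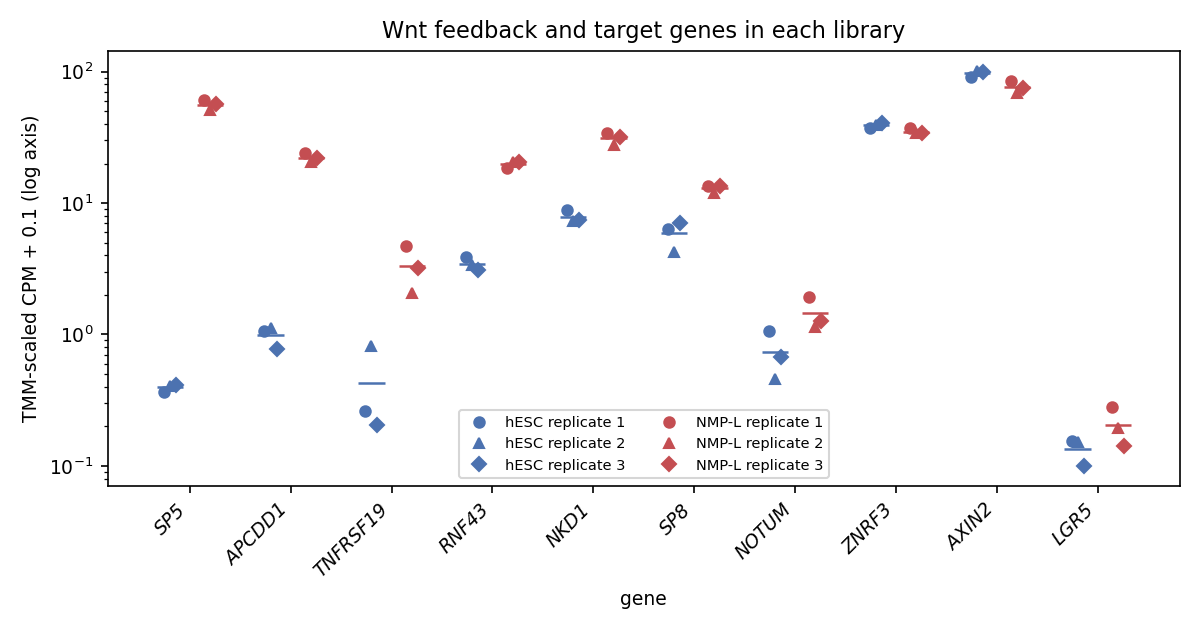
Level of each gene in each library, as TMM-scaled CPM with 0.1 added, on a log axis (circles, triangles and diamonds are replicates 1, 2 and 3, and short lines are means of 3 libraries). The conditions separate upwards for 7 genes, from SP5 to NOTUM, lie slightly downwards for ZNRF3 and AXIN2, and overlap for LGR5.

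The largest rise was in SP5, which encodes a zinc finger transcription factor of the Sp family that binds GC-rich DNA and is known to act at Wnt-regulated genes. SP5 lies on chromosome 2 of GRCh37 from 171571847 to 171574588. The hESC libraries held 5, 6 and 6 SP5 counts and the NMP-L libraries 1344, 1066 and 1352. The hESC libraries lay just above the detection floor and the NMP-L libraries were close to each other, at 55.9 ± 4.78 CPM against 0.296 ± 0.0255 CPM (SD, n = 3 each). The rise was 185-fold (log2 fold change 7.53, standard error 0.17, adjusted p = 2.2e-10), and it was the 11th largest among the 15517 tested genes. With DESeq2 the standard error was larger, at 0.37.

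SP8, a paralogue of SP5 known for its part in limb and forebrain outgrowth, lies on chromosome 7 from 20821899 to 20826505. It had 118, 80 and 133 counts in hESCs and 300, 248 and 318 in NMP-L cells. SP8 was thus already expressed in hESCs, where its libraries varied more than those of NMP-L cells (5.78 ± 1.48 CPM against 12.9 ± 0.901 CPM, SD, n = 3 each). It rose by 2.22-fold (log2 fold change 1.15, standard error 0.17, adjusted p = 1.5e-04). Per length, SP8 stood at 2.24 to 3.87 TPM and SP5 at 0.29 to 0.34 TPM in hESCs, whereas in NMP-L cells SP5 stood at 57.2 to 68.0 TPM and SP8 at 6.81 to 8.21 TPM. The order of the paralogues was therefore exchanged between the conditions in every library. Among the other Sp genes examined, SP6 rose as well (log2 fold change 1.76, standard error 0.18), whereas SP7 and SP9 were too low to be tested.

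TCF/LEF factors are known to bind DNA at CTTTGAT and related letters, and the promoters of these genes are shown because the genes changed by such different amounts. RefSeq promoter windows (build GRCh38.p14, 250 bases before to 50 bases after a gene's start) matched 5 of the 10 genes, with 1 window each for SP5, SP8 and APCDD1 and 2 each for RNF43 and TNFRSF19. AXIN2, NKD1, NOTUM, ZNRF3 and LGR5 were not analysed here for promoter sequence. The 250 bases before the start are printed 5′ to 3′ on the gene's strand for the strongest riser, its paralogue and the gene with the second largest rise, with the letters CTTTG on either strand (CTTTG or CAAAG) in capitals. They lie at chr2:170715087-170715336 (plus strand) for SP5, chr7:20786887-20787136 (minus strand) for SP8 and chr18:10454385-10454634 (plus strand) for APCDD1.
SP5: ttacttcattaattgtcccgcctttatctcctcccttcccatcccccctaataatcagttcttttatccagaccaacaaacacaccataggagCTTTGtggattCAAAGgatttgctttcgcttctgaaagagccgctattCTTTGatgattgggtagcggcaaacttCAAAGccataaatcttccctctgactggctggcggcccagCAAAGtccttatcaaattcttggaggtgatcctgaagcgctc
SP8: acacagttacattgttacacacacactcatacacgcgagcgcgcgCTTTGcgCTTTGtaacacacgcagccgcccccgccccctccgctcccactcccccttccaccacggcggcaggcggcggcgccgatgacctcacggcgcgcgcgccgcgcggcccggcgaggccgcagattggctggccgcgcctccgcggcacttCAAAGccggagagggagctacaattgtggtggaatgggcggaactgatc
APCDD1: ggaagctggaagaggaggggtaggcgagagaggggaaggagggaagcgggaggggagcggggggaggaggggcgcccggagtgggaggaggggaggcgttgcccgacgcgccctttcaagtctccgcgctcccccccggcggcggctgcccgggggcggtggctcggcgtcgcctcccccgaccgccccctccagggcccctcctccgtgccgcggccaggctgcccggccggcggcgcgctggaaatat

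Searched on both strands of the whole windows, CTTTGAT occurred once, in the window of SP5, at 109 bases before the start, and it occurred at least once in 2.62% of the 35116 windows of all genes. The looser CTTTGNT, which includes CTTTGAT, occurred 2 times in the window of SP5 and not in the other windows examined here, with at least 2 matches in 1.65% of all windows. The shorter CTTTG, contained in both and chosen after the window of SP5 was seen, occurred 5 times in SP5, all within 157 bases before the start, and 0.185% of all windows held at least 5. It occurred 3 times in SP8 (4.41% of all windows held at least 3), once in each window of RNF43, once in 1 of the windows of TNFRSF19 and 0 times in APCDD1, against 47.5% of all windows with at least 1. These matches describe letters in short windows, and their part in the fold changes was not tested.

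The 2 secreted or membrane-bound inhibitors that act on the ligand both rose, to very different levels. APCDD1, a membrane glycoprotein that binds Wnt and LRP5, lies on chromosome 18 from 10454632 to 10489946. APCDD1 had 18, 20 and 13 counts in the hESC and 533, 427 and 527 in the NMP-L libraries. The libraries of each condition were close together (0.889 ± 0.186 CPM before and 22.1 ± 1.79 CPM after differentiation, SD, n = 3 each), and the rise was 24.7-fold (log2 fold change 4.63, standard error 0.17 or, with DESeq2, 0.25, adjusted p = 3.0e-09). Its paralogue APCDD1L changed in the opposite direction, from 103, 135 and 113 counts to 36, 25 and 37 (log2 fold change -2.07, standard error 0.19).

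NOTUM, a secreted enzyme that removes the lipid Wnt ligands need for activity, lies on chromosome 17 from 79910383 to 79919716. The hESC libraries held 18, 7 and 11 NOTUM counts and the NMP-L libraries 41, 22 and 28. The lowest NMP-L library, at 1.05 CPM, was only slightly above the highest hESC library, at 0.961 CPM. The rise of 2.14-fold (log2 fold change 1.10, standard error 0.37, adjusted p = 0.026) was the least secure of the 7. It was not past the threshold without hESC replicate 2 (log2 fold change 0.81, adjusted p = 0.11), without hESC replicate 3 (1.03, adjusted p = 0.094), without NMP-L replicate 1 (0.82, adjusted p = 0.11), relative to HPRT1 counts (0.84, adjusted p = 0.068) or with DESeq2's Wald test (1.08, adjusted p = 0.073).

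The paralogous ubiquitin ligases RNF43 and ZNRF3, which remove Frizzled receptors from the cell surface, differed from each other. RNF43, on chromosome 17 from 56431037 to 56494956, went from 71, 64 and 57 counts to 408, 432 and 487. It rose by 5.89-fold, from 3.35 ± 0.411 to 19.7 ± 1.25 CPM (SD, n = 3 each), or 2.56 on the log2 scale (standard error 0.13, adjusted p = 3.9e-08). ZNRF3, on chromosome 22 from 29279560 to 29453476, held 695, 757 and 780 counts before and 825, 710 and 809 after differentiation.

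ZNRF3 averaged 38.9 ± 1.80 CPM before and 34.9 ± 1.85 CPM after differentiation (SD, n = 3 each). It did not pass the threshold (log2 fold change -0.16, approximate 95% interval from -0.34 to 0.02, adjusted p = 0.16), and its sign depended on the scaling, with 0.40 relative to GAPDH counts (adjusted p = 0.0060) and -0.46 relative to HPRT1 counts (adjusted p = 0.043). Within each library, a measure that no scaling between libraries affects, RNF43 made up 8.31% to 10.8% of the summed TPM of the pair in hESCs and 37.7% to 41.5% in NMP-L cells. ZNRF3 was the more abundant of the pair per length in all 6 libraries. LGR4, LGR5 and LGR6 encode receptors for R-spondins, the secreted ligands that inhibit this ligase pair.

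LGR5, best known as a stem cell marker of the intestine, lies on chromosome 12 from 71833578 to 71980090 and was hardly detected. The hESC libraries held 1, 1 and 0 counts of LGR5 and the NMP-L libraries 4, 2 and 1, so that 5 of the 6 libraries were at or under the floor of 3 counts and no fold is given. The conditions overlapped (exact permutation test, two-sided, p = 0.3), and a difference was not detectable at this depth. With no filter beyond 1 count in total LGR5 could be tested, with an adjusted p of 0.34. LGR4, by contrast, averaged 110.3 CPM before and 105 CPM after differentiation (log2 fold change -0.07, standard error 0.13, adjusted p = 0.66), although relative to GAPDH counts it was called higher (0.50, adjusted p = 0.039). LGR6 was not called (log2 fold change 0.47) except relative to GAPDH counts (1.03) and without hESC replicate 3 (0.78).

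TNFRSF19, also called TROY, encodes a membrane receptor of the TNF receptor superfamily and is a Wnt target in several epithelia. It lies on chromosome 13 from 24144509 to 24250243. Counts of TNFRSF19 were 3, 14 and 2 before and 103, 41 and 75 after differentiation. The hESC libraries of replicates 1 and 3 were at or under the floor and replicate 2 was above it, at 0.720 CPM, while the lowest NMP-L library was at 1.95 CPM. The rise was 9.65-fold (log2 fold change 3.27, standard error 0.51, adjusted p = 2.1e-04), and its size rested on hESC replicate 2, without which the log2 fold change was 4.55. Of its relatives in the receptor family, EDAR went from 0, 1 and 0 counts to 29, 18 and 24, at least 6.71-fold higher, and EDA2R was not called (log2 fold change 0.32), but was past the threshold with library size only, relative to GAPDH counts and without NMP-L replicate 2.

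Inside the cell, AXIN2 and NKD1 also differed from each other in direction. NKD1, which binds Dishevelled and dampens the signal, lies on chromosome 16 from 50582307 to 50683160. It was measured at 164, 140 and 140 counts in the hESC libraries and at 761, 578 and 759 in the NMP-L libraries. The conditions were far apart, and NKD1 rose 4.02-fold from 7.75 ± 0.868 to 31.1 ± 3.34 CPM (SD, n = 3 each), or by 2.01 on the log2 scale (standard error 0.13, adjusted p = 1.9e-07). Its paralogue NKD2 was at 6.98 and 7.30 CPM (log2 fold change 0.06, standard error 0.15) and was not called, except relative to GAPDH counts (0.61).

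AXIN2, the scaffold of the β-catenin destruction complex that is widely used as a readout of Wnt activity, lies on chromosome 17 from 63524681 to 63557766. The hESC libraries held 1694, 1982 and 1907 AXIN2 counts and the NMP-L libraries 1883, 1446 and 1806. Corrected for library size and composition, the levels were 90.4, 102 and 99.5 CPM before differentiation and 84.5, 68.9 and 75.4 CPM after it, so that the transcript was abundant in both conditions and all NMP-L libraries were slightly below all hESC libraries. AXIN2 fell by 0.35 on the log2 scale (to 0.784 of its hESC level, standard error 0.09, adjusted p = 0.0081). The fall was small and depended on the processing, since without NMP-L replicate 2 the log2 fold change was -0.28 (adjusted p = 0.052) and relative to GAPDH counts it was 0.21 (adjusted p = 0.11). Across the alternatives tried, the log2 fold change of AXIN2 lay between -0.65 and 0.21, so that a 2-fold rise was not seen in any of them. AXIN1, its paralogue that is not known as a Wnt target, was called lower as well (63.0 and 47.5 CPM, log2 fold change -0.41, standard error 0.09), but was not called and had the opposite sign relative to GAPDH counts (0.15).

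**Figure D2:**
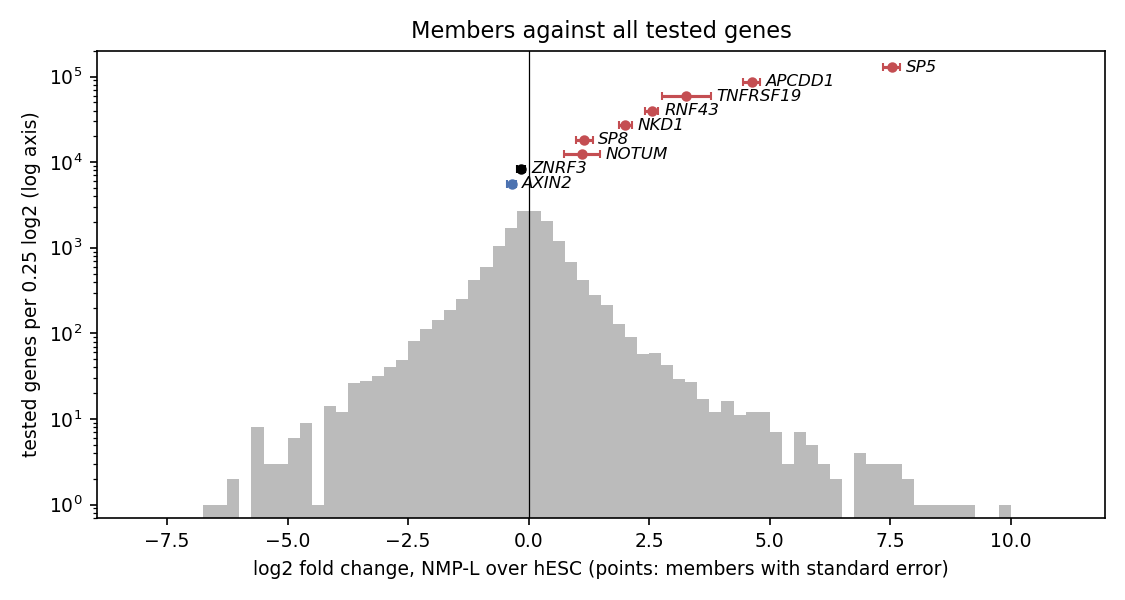
Log2 fold change (NMP-L over hESC) of the 9 tested members, as points with their standard errors (red higher, blue lower, black not called), above the distribution of all 15517 tested genes (grey, number of genes per 0.25 log2 on a log axis). The height of the points has no meaning. The bars are from the edgeR fit, and those of SP5 and APCDD1 (0.17 each) are shorter than the standard errors from DESeq2 (0.37 and 0.25). SP5 at 7.53 and APCDD1 at 4.63 lie in the far right tail, whereas AXIN2 at -0.35 and ZNRF3 at -0.16 lie in the bulk.

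Among the tested genes, the log2 fold changes of SP5, APCDD1, TNFRSF19, RNF43 and NKD1 lay at percentiles 99.9, 99.6, 99.0, 98.3 and 97.2. Those of SP8 and NOTUM lay at 92.1 and 91.6, that of ZNRF3 at 36.6 and that of AXIN2 at 25.8. The fold changes therefore covered a wide range, from 185-fold to slightly below 1, among genes with the same textbook description as Wnt targets.

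The order of the levels per length differed between the conditions. In hESCs AXIN2 was highest at 44.3 to 48.1 TPM, followed by ZNRF3 (11.4 to 12.35 TPM), SP8 (2.24 to 3.87 TPM), NKD1 (1.63 to 2.06 TPM) and RNF43 (1.21 TPM on average), with no overlap between neighbours. Below them APCDD1, NOTUM, SP5 and TNFRSF19 followed, each with a range that overlapped the next, and LGR5 was at most 0.03 TPM. In NMP-L cells SP5 was highest at 57.2 to 68.0 TPM, followed by AXIN2 (34.7 to 42.6 TPM), APCDD1 (17.2 to 20.3 TPM) and ZNRF3 (10.7 to 11.7 TPM), again without overlap. NKD1, SP8 and RNF43 followed at 7.69, 7.63 and 7.55 TPM on average and could not be ordered, and TNFRSF19 and NOTUM overlapped as well.

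**Figure D3:**
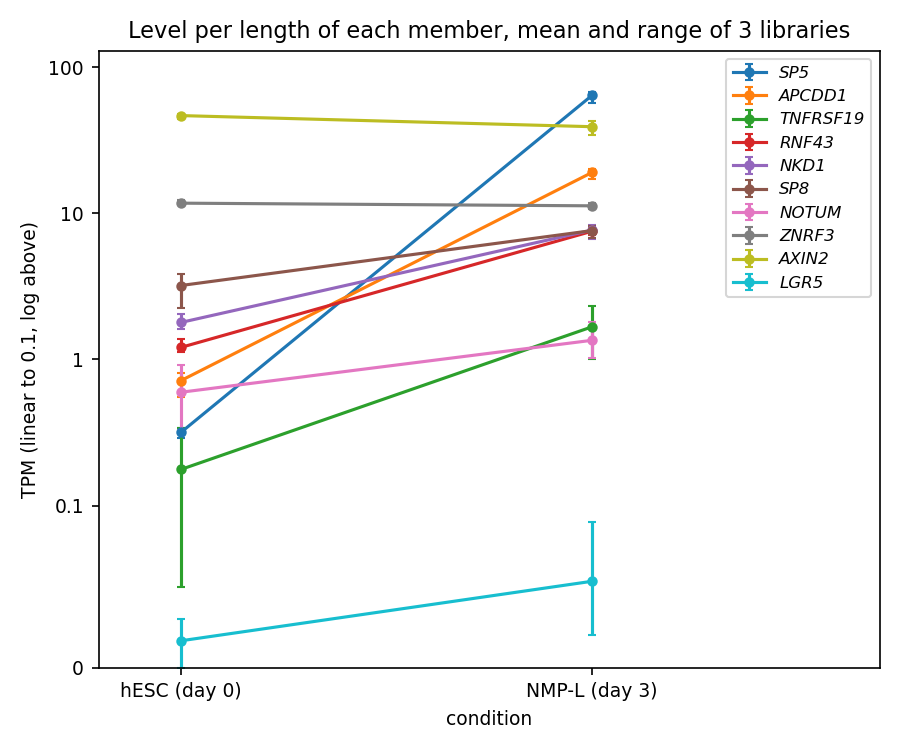
Level per length of the 10 genes in TPM (mean of 3 libraries, bars from the lowest to the highest library, axis linear up to 0.1 and logarithmic above). The lines of SP5 and APCDD1 cross those of most other genes, whereas AXIN2 and ZNRF3 stay nearly level.

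The summed TPM of the 10 genes was 64.8 to 68.6 in hESC libraries and 143 to 170 in NMP-L libraries. AXIN2 made up 68.3% to 72.4% of this sum in hESCs and 24.3% to 25.1% in NMP-L cells. SP5 made up 0.448% to 0.496% in hESCs and 40.0% to 40.6% in NMP-L cells. Within a library, AXIN2 was at 141 to 153 times the TPM of SP5 in hESCs, and SP5 at 1.60 to 1.67 times that of AXIN2 in NMP-L cells.

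The 3 NMP-L libraries were not equal for these genes. In CPM, NMP-L replicate 2 was the lowest NMP-L library for 7 of the 9 tested genes (all except RNF43 and ZNRF3), while it was the lowest for 26.3% of all tested genes and for 26.0% of the 4512 genes called higher. NMP-L replicate 1 was the highest for 8 of the 9, against 37.7% of all tested genes. The same library, replicate 2, was also the lowest for T (537, 293 and 629 counts), CDX1 (312, 202 and 321 counts) and CDX2 (522, 326 and 607 counts), which mark caudal progenitors. CDX4, also called higher, was instead lowest in replicate 3 (44, 34 and 31 counts). The neural progenitor marker SOX1 had its fewest NMP-L counts in replicate 2 as well. These shares are a description of 3 libraries, and the part of the makeup of the cultures in them was not tested. In hESCs each library was the lowest for 3 of the 9 genes.

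The wider pathway was examined through lists of other reported Wnt targets, of paralogues and partners of the 10 genes, and of core pathway components. Of 27 other Wnt targets, 22 were tested, with 12 higher and 7 lower and a median log2 fold change of 0.51, where 29.1% of all tested genes were higher and 26.7% lower. The list had 15 higher and 5 lower when scaled by GAPDH counts, by which 64.6% of all tested genes were higher and 9.20% lower. When scaled by HPRT1 counts it had 9 higher and 7 lower, against 11.6% and 34.1% of all tested genes. The balance also depended on genes with few hESC counts, such as T, CDX1 and CDX2, which pass the filter only through NMP-L libraries. With at least 10 counts in every library, 16 were tested, with 6 higher and 7 lower, against 29.0% and 26.3% of all genes tested that way. LEF1, the TCF/LEF factor that is itself a Wnt target, rose from 51, 40 and 41 to 577, 443 and 644 counts (log2 fold change 3.42, standard error 0.16), whereas TCF7 did not pass the threshold (0.19, standard error 0.11) unless scaled by library size only (0.27), by GAPDH counts (0.74) or in TPM (0.31). CDX2 and T, with at most 2 counts in any hESC library, were both at least 137-fold higher, and CDX1 went from 0, 0 and 4 to 312, 202 and 321 counts. The fitted log2 fold change of CDX1, 7.35, rested on the 4 counts of hESC replicate 3, since it was 11.02 without that library and 6.79 without hESC replicate 2. In the opposite direction, MYC fell by 2.02 on the log2 scale (1163, 1226 and 1241 to 352, 331 and 366 counts), and WIF1, a secreted Wnt inhibitor (log2 fold change -2.23), TBX6 (-1.24) and BAMBI (-1.05) were also lower. DKK1, another secreted feedback inhibitor, was too low to be tested (2, 1 and 3 against 3, 10 and 15 counts).

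Of 37 core pathway genes, 36 were tested, with 16 higher and 8 lower and a median of 0.12, a balance that depended on the scaling. There were 29 higher and 1 lower relative to GAPDH counts, and 7 higher and 11 lower relative to HPRT1 counts, whereas of all tested genes 29.1% were higher and 26.7% lower with TMM, 64.6% and 9.20% relative to GAPDH counts, and 11.6% and 34.1% relative to HPRT1 counts. WLS, which carries Wnt ligands to the cell surface, rose by 5.77 on the log2 scale (standard error 0.16). The receptor genes FZD10 (5.54), FZD2 (3.99, with reads partly shared with other genes) and FZD1 (1.66) also rose. TCF7L1, a TCF factor known as a repressor in embryonic stem cells, fell by 1.56 on the log2 scale. TCF7L2 (-0.66), BCL9L (-0.79) and CSNK1E (-0.74, also with shared reads) were lower too, but were not called relative to GAPDH counts. CTNNB1, the gene of β-catenin, and GSK3B, a target of CHIR99021, were called higher (0.30 and 0.56), but not relative to HPRT1 counts (0.0039 and 0.26). APC was not called (0.06), except relative to GAPDH counts (0.62). Of 14 paralogues and partners, 10 were tested, with 2 higher (EDAR and SP6), 3 lower (APCDD1L, RSPO4 and AXIN1) and a median of -0.0035. These counts are near the background of 29.1% higher and 26.7% lower among all tested genes. The call of RSPO4 (-0.49, adjusted p = 0.030) was lost in 11 of the 17 alternatives.

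**Figure D4:**
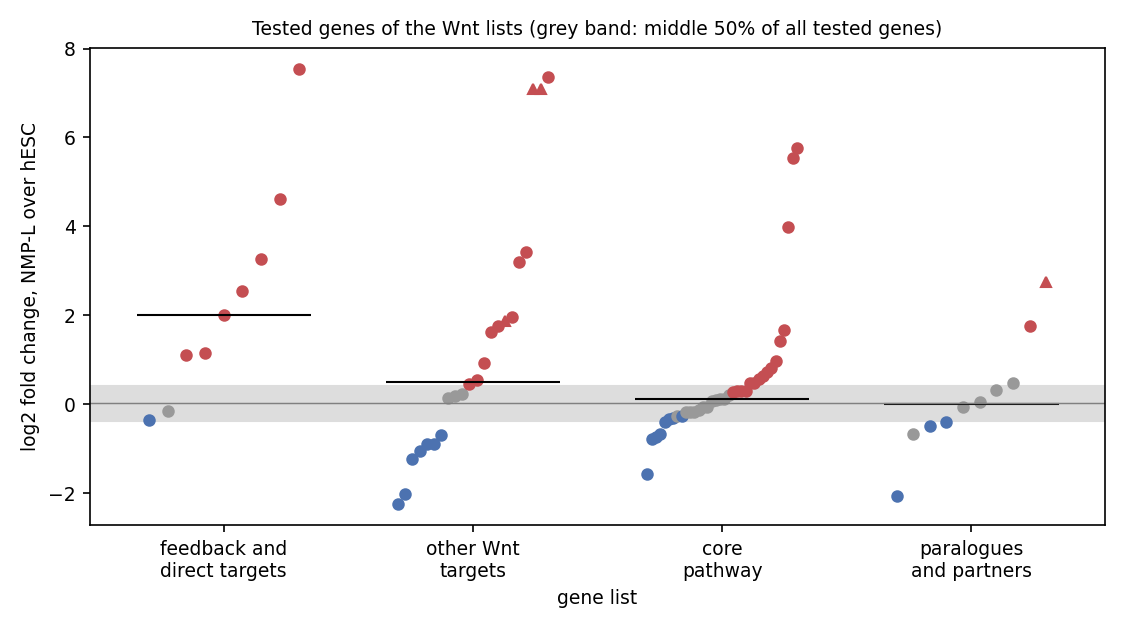
Log2 fold change of each tested gene of the Wnt lists (red higher, blue lower, grey not called, triangles lower bounds for genes at or under the floor in all hESC libraries, lines list medians, grey band the middle 50% of all tested genes from -0.37 to 0.42). The 9 tested feedback and target genes have a median of 2.01, against 0.51 for other targets, 0.12 for core genes and -0.0035 for paralogues and partners.

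None of the 10 genes had a fractional expected count in any library, so RSEM did not divide reads between them and other genes. In the GENCODE release 44 annotation on GRCh37, exons of AXIN2 and RNF43 are overlapped on the same strand by a further protein-coding model. The overlap covers 1316 of 5197 exonic bases of AXIN2 and 4326 of 6329 of RNF43. Exons of NKD1, NOTUM, RNF43 and LGR5 share between 67 and 345 bases with long noncoding RNAs on the opposite strand. Whether the counting used the strand is not given in the sources used here, so that reads from these shared stretches cannot be assigned with certainty. ZNRF3, SP5, SP8, TNFRSF19 and APCDD1 had no such overlap.

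**Figure D5:**
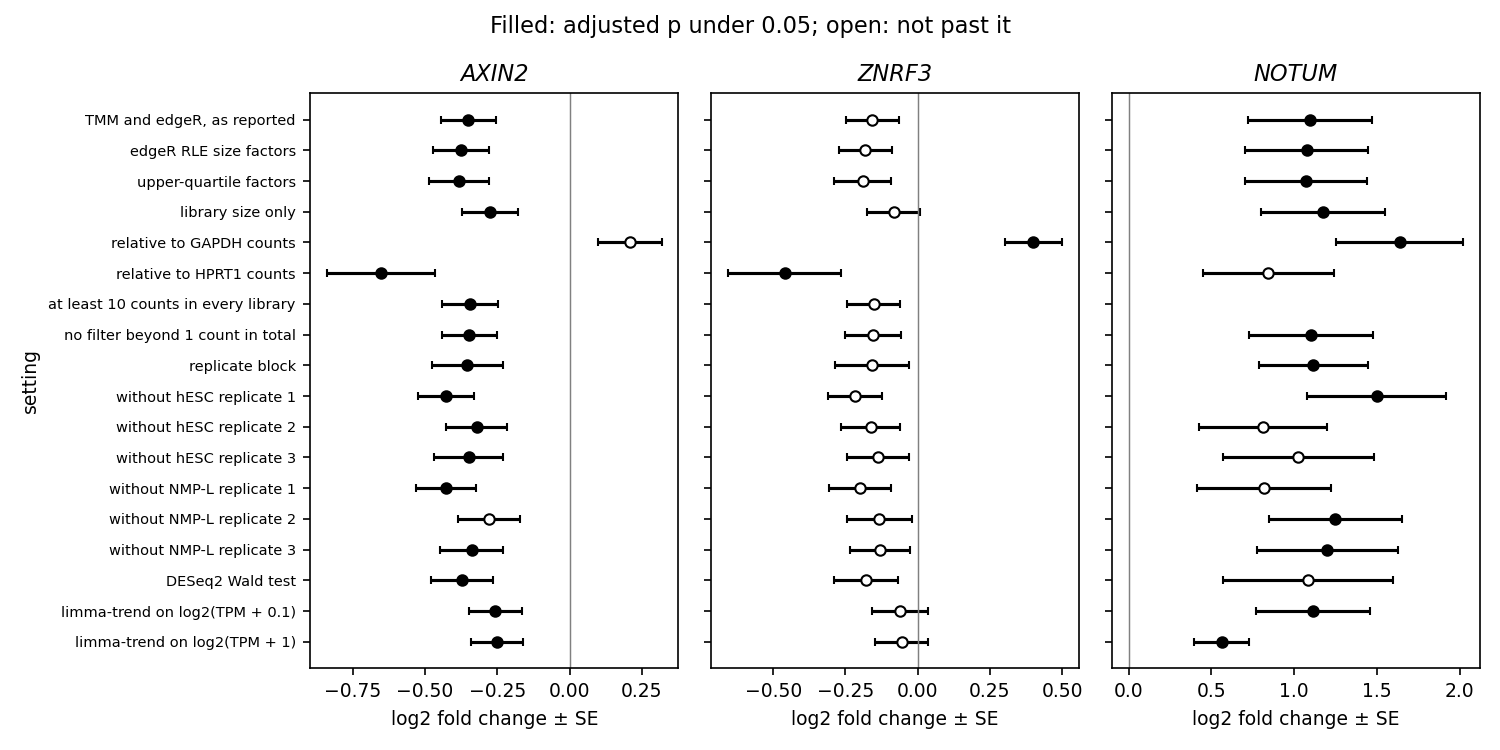
Log2 fold change with standard error of AXIN2, ZNRF3 and NOTUM under each processing setting (filled points are past an adjusted p of 0.05, open points are not, and NOTUM has no point where at least 10 counts in every library were required). AXIN2 ranges from -0.65 to 0.21 and changes sign relative to GAPDH counts only, ZNRF3 ranges from -0.46 to 0.40, and NOTUM stays above 0 but passes the threshold in 11 of its 16 alternatives.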

How the data were processed

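RNA-seq was analysed in 3 hESC and 3 NMP-L libraries, grouped by the titles of the samples. For each gene the authors deposited the expected count from RSEM, not normalized between libraries. They also deposited TPM, a level per transcript length that sums to 1000000 in a library. The submitters' processing notes name cutadapt 1.9.1, STAR 2.5.2a, RSEM 1.3.0, DESeq2 1.12.3 and the build hg19. The annotation is not given in the sources used here, and the reads were single-end, 76 bp. Each column was matched to 1 library, and 0 per-sample columns were left unused.

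After rounding, the whole-number counts were tested with edgeR 4.0.16 in R 4.3.3 (filterByExpr with a minimum count of 10, TMM, glmQLFit and glmQLFTest on condition). The standard error is the log2 fold change divided by the square root of F. For SP5 and APCDD1, which have few hESC counts, it was smaller than the standard error from DESeq2. Permutation tests used log2(CPM + 0.1). Where no library of a condition exceeded 3 counts, the fold is a lower bound, computed against 3 counts per library. Limits of this kind cover counting error only. limma 3.58.1 on log2(TPM + 0.1) and log2(TPM + 1) and DESeq2 1.42.0 served as alternatives. The edgeR fit was tested on simulated data. Tables and figures were made with Python 3.11.15, pandas 2.3.3, scipy 1.17.1 and matplotlib 3.10.9. Positions are from GENCODE release 44 on GRCh37.

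The 10 genes and the lists were chosen with earlier results of these data known. Named beside the 10 are the 4 largest rises and 4 largest falls called in each list with at least 10 counts on average in the higher condition, and LEF1, TCF7, T, DKK1, AXIN1, LGR4, NKD2, CTNNB1, GSK3B and APC. CDX1, CDX2, NKX1-2, FGF17, FGF8, SOX2, EOMES, MIXL1, SOX17, SOX1, NEUROG2, DLL1, SOX10, FOXD3 and PAX3 are named as cell type markers, and SP7, SP9, LGR6 and EDA2R as paralogues chosen after their values were seen. CDX4 was also named after its values were seen. Alternatives were other normalizations (RLE, upper quartile, library size only, GAPDH, HPRT1), other filters, the replicate number as a block, DESeq2, TPM, and each library left out in turn.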

Additional observations from a re-analysis of the deposited data

How the results depend on the processing

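The number of genes that differed was 8653 and lay between 7087 and 11455 across all alternatives. Of 150 recomputed fold changes of single members, 141 kept their direction and their side of the threshold, and 2 reversed. Of those with an unchanged direction, 6 were no longer past the threshold and 1 newly passed it. All 9 were in AXIN2, NOTUM and ZNRF3. The 2 that reversed also changed side of the threshold: AXIN2 was no longer past it and ZNRF3 newly passed it. Relative to GAPDH counts AXIN2 reversed to 0.21 and ZNRF3 to 0.40, 0 members were lower in place of 1, paralogues and partners had 6 higher and 1 lower in place of 2 and 3, and core genes had 29 higher and 1 lower in place of 16 and 8. Relative to HPRT1 counts 2 members were lower and 7 core genes were higher. With at least 10 counts in every library, which removes SP5, TNFRSF19 and NOTUM, 4 of 6 tested members were higher in place of 7 of 9. Of other Wnt targets 6 of 16 were higher in place of 12 of 22, and 7 were lower either way. Of paralogues and partners 1 of 8 was higher in place of 2 of 10. Of all genes tested with this filter 29.0% were higher and 26.3% lower. With the replicate block 7 members were higher and 1 lower, as without it, 5 core genes were lower in place of 8, and 7560 genes differed in all. Same-numbered libraries did not deviate together (correlation of deviations across genes -0.37, -0.06 and -0.13 for replicates 1, 2 and 3), and no source states a pairing. With each library left out in turn, the number of members lower lay between 0 (without NMP-L replicate 2) and 1, that of paralogues and partners higher between 2 and 4 (4 without hESC replicate 3 or NMP-L replicate 2), and that of core genes lower between 5 (without hESC replicate 3) and 10. The cause of these changes was not tested beyond what each alternative leaves out. With 3 libraries per condition, the sizes of the changes of TNFRSF19 and NOTUM have the largest standard errors (0.51 and 0.37, or 0.54 and 0.51 with DESeq2). The size of the SP5 rise is also uncertain, since it rests on 5 or 6 counts per hESC library. The standard error of SP5 was 0.17 in the edgeR fit but 0.37 with DESeq2. Its log2 fold change lay between 5.63 and 8.09 across the alternatives. LGR5 has too few counts for a fold.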

Other observations

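The 5 tested genes with the profile across the 6 libraries most like that of AXIN2 (smallest Euclidean distance between centred log2 CPM, 0.04 to 0.10) were SGSM2, HIP1R, FBN3, OTUD5 and SRSF2, which had log2 fold changes between -0.38 and -0.29. Among the other members ZNRF3 was nearest to AXIN2 (distance 0.28), at rank 749 of the tested genes, and SP5 the farthest (distance 9.18), at rank 15514. RSPO3, which encodes an R-spondin and falls outside the rule for named genes, was chosen after its values were seen: it had 0 counts in all 3 hESC libraries and 19, 8 and 61 counts in the NMP-L libraries, where replicate 3 held most of the counts. The other R-spondin genes went the other way. In CPM every NMP-L library lay below every hESC library for RSPO1 (5, 5 and 8 against 1, 0 and 5 counts, not tested) and RSPO2 (14, 11 and 13 against 8, 9 and 11 counts, not called), and RSPO4 was called lower.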
